A study of Mus musculus with 7 samples.

Results

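The 4 mouse miRNAs described here, mmu-miR-671-5p, mmu-miR-188-5p, mmu-miR-129-5p and mmu-miR-1224 (written without the species prefix from here on), were lower in sarcoma cells recovered from spheres than in the cells that had stayed in monolayer culture. They were picked by name because their array values were lower in the sphere-derived cells, so the differences that picked them are given as a description, with no test. They make up 4 of the 252 mouse miRNAs with deposited normalized values, and the array carried 696 mouse miRNAs. The cells came from soft tissue sarcomas of p53 knocked out mice, and every group was therefore p53-null. Control primary cells carried a non-target shRNA and Rb-depleted primary cells an shRNA against Rb, both were selected with puromycin, and both grew in 2D culture with serum. Rb-depleted secondary cells came from the Rb shRNA cells after 10 to 14 days in serum-free methylcellulose with EGF and bFGF, when spheres were collected and grown once more as a monolayer. MiRNAs were measured on 1-colour Agilent arrays with 100 ng of total RNA per array, with 2 arrays for each kind of primary cell and 3 for the Rb-depleted secondary cells.

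Some features of the design limit what the groups can stand for. The spheres were picked by hand and more than 10 were pooled, 1 shRNA against Rb was used for the arrays, and the secondary cells differed from the primary cells in both sphere culture and replating. Control secondary cells have no arrays analysed here, so the effect of sphere culture cannot be told apart from that of sphere culture after Rb depletion. The labels describe 2 or 3 independent experiments per condition without saying whether these were separate cultures or tumours, and p-values measure the spread between these arrays. The arrays hold no mRNA, so neither the depletion of Rb nor the identity of the cells was checked on them.

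A miRNA is cut from a hairpin in a longer transcript by the nuclease Drosha and then by Dicer, and 1 arm of the hairpin usually becomes the stable strand in the Argonaute complex. Bases 2 to 8 of that strand, the seed, pair with target mRNAs and lead to their repression or decay. The 4 miRNAs reach this common pathway from different kinds of locus. The miR-129 hairpins are genes of their own and are best known from brain and from tumours, where they are often silenced and where Sox4 is a known target. The miR-188 hairpin sits in an intron of Clcn5, a chloride/proton exchanger gene, among other miRNA hairpins. MiR-1224 is a mirtron, an intron that folds into a hairpin after splicing and bypasses Drosha. MiR-671-5p is known for directing the cleavage of the circular RNA Cdr1as.

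The mature sequences are shown because the 4 miRNAs have no seed in common. Each is written 5′ to 3′ with the seed in capitals, from RefSeq on GRCm38.p6, and the last is the other arm of the miR-129-2 hairpin, which was also on the array.
miR-671-5p: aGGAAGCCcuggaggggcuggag
miR-188-5p: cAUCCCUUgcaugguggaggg
miR-129-5p: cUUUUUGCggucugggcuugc
miR-1224: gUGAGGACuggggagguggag
miR-129-3p: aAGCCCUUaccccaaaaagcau
Among the 1679 mature names of the RefSeq table, the seed of miR-188-5p was shared with 1 other miRNA, miR-7061-3p, and those of the other 3 members with 0. None of the 4 seeds recurred among the miRNAs of the normalized table. G made up 61.9% of the bases of miR-1224, 52.2% of miR-671-5p, 38.1% of miR-188-5p and 33.3% of miR-129-5p. For the other arm of miR-129 the share of G was 9.09%.

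On NCBIM37, the assembly that the file headers name for the array design, the Mir671 hairpin lay on chr5:24097932-24098029 on the plus strand. It fell in a coding exon of Chpf2, a gene for a chondroitin-synthesising enzyme, in 3 of the 4 annotated Chpf2 transcripts and in an intron in the other. Mir188 lay on chrX:6825115-6825182 on the minus strand, in an intron in each of the 3 Clcn5 transcripts that span it. Mir1224 lay on chr16:20604525-20604609 on the plus strand, and in all 3 Vwa5b2 transcripts that span it the annotated intron had exactly the same first and last base as the hairpin. Identical miR-129-5p is cut from Mir129-1, on chr6:28972619-28972691 on the plus strand, and from Mir129-2, on chr2:94081521-94081610 on the minus strand. Neither lay within another gene annotated on its strand. The array cannot tell the products of these last 2 loci apart.

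The scanner software reports for each miRNA a total gene signal, the summed brightness of those of its probes that it counted on that array, and the authors deposited log2 values of it after quantile normalization. These arrays lay on 2 slides, with the 4 arrays of primary cells and Rb-depleted secondary cells replicate 1 on slide 1 and replicates 2 and 3 of the secondary cells on slide 2. Total gene signal summed over the 252 miRNAs ranged from 432616 to 550498 intensity units per array. Before normalization the median log2 difference over the 252 miRNAs was -0.26 between Rb-depleted primary and control cells, -0.46 between Rb-depleted secondary and control cells and -0.18 between secondary and Rb-depleted primary cells. Differences after normalization are relative to these shifts. In RNA from a whole culture, a loss of cells that express a miRNA and a lower amount per cell cannot be told apart. Having 2 or 3 arrays in a group also limits how precisely any difference is known.

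All 4 miRNAs were lower on each of the 3 secondary arrays than on every array of control and Rb-depleted primary cells. By comparison, 22.2% of the 252 miRNAs were lower on all secondary arrays than on all control arrays, and 24.2% than on all Rb-depleted primary arrays. The share that met both conditions at once, as the members did, was not counted. Nothing is read from this contrast with the members, which were chosen for it. The median log2 difference of the 4 was -1.44 against control cells and -1.19 against Rb-depleted primary cells, where that of all 252 was 0.03 and 0.02. On the normalized scale the arrays of miR-188-5p and miR-1224 were also lower in Rb-depleted primary than in control cells, those of miR-129-5p overlapped and those of miR-671-5p were higher. With all probes of miR-671-5p summed and normalized, however, its arrays overlapped, at 4.77 and 4.54 in control cells and 4.69 and 4.93 in Rb-depleted primary cells. Whether the members differed from each other at this step was not tested.

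**Figure D1:**
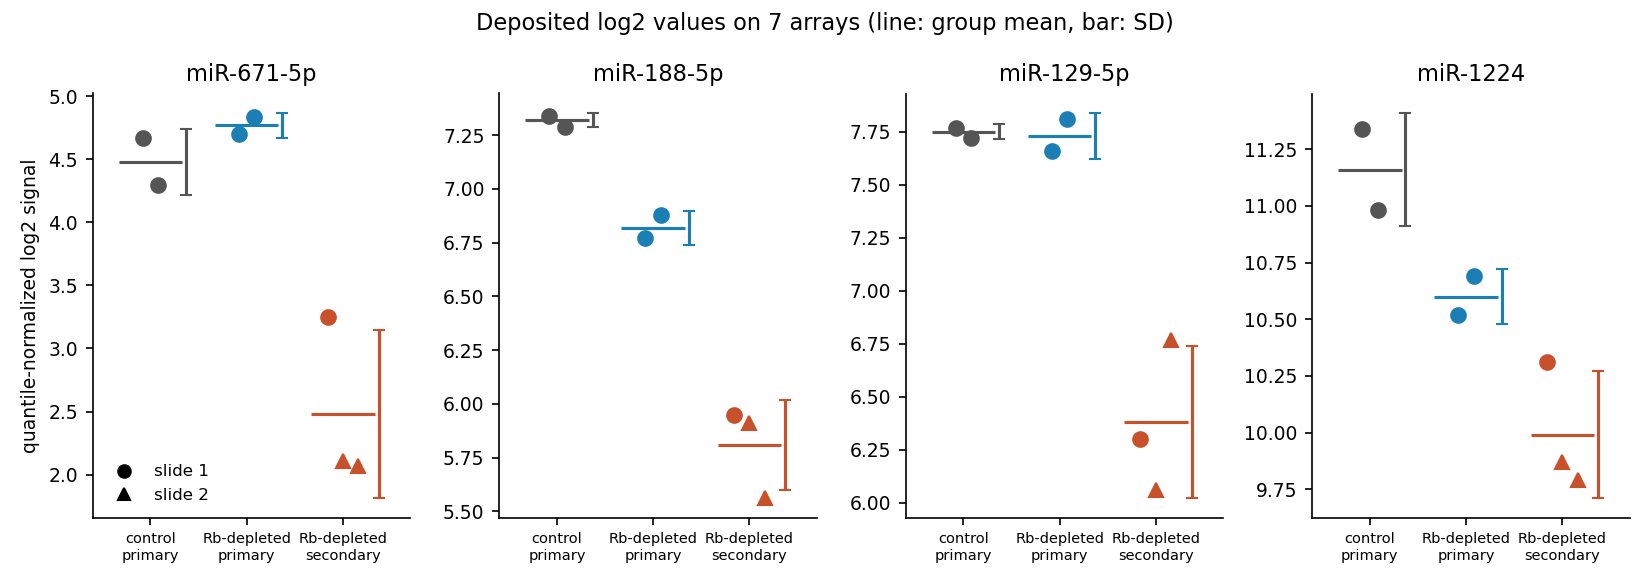
Deposited quantile-normalized log2 signal (vertical axis, a separate scale for each miRNA) of the 4 miRNAs on each of the 7 arrays, by group. Points are arrays (circles slide 1, triangles slide 2), horizontal lines are group means and bars are the SD over 2, 2 and 3 arrays. The 3 secondary arrays lie below all others in each panel, and for miR-671-5p and miR-1224 the secondary array on slide 1 lies above the 2 on slide 2.

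MiR-129-5p had overlapping normalized values in both kinds of primary cells and was lower in secondary cells. Its total gene signal was 259 and 246 intensity units in control cells, 206 and 206 after Rb depletion in primary cells and 70.9, 56.8 and 97.7 in secondary cells. The normalized log2 values were 7.77 and 7.72, then 7.66 and 7.81, then 6.30, 6.06 and 6.77. After normalization the control and Rb-depleted primary arrays overlapped, and the highest secondary array stood well below them. The mean in secondary cells was lower by a log2 difference of -1.37 (SE 0.212) than in control cells, a 2.59-fold lower level, and by -1.36 (SE 0.212) than in Rb-depleted primary cells.

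These differences were as large on slide 1 alone. There the secondary array differed by -1.45 from the control mean and by -1.43 from the Rb-depleted primary mean on the log2 scale, so that miR-129-5p was the member whose difference was not smaller within the slide. Its 2 probes behaved alike. The lowest of the 40 spots of the first probe on primary and control arrays had a signal of 177, and the highest of its 30 spots on secondary arrays one of 110. For the second probe these were 86.4 and 57.4, and thus no spot of either probe overlapped between the groups. Spots repeat a probe within an array and were not normalized between arrays, so this is a description only. How many of the other probes on the array lack such overlap was not counted.

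The other arm of the hairpin, which the rule did not use, fell as well. MiR-129-3p, which the scanner files call miR-129-2-3p after the only locus that encodes this sequence, had log2 values of 9.95 and 10.1 in control cells, 9.81 and 9.87 after Rb depletion in primary cells and 8.46, 8.38 and 9.02 in secondary cells. Secondary cells were below all others on every array. Spots of its first probe, not normalized between arrays, did overlap. Their lowest signal on primary and control arrays was 71.8 and their highest on secondary arrays 159. For its second probe these were 1020 and 665, without overlap. By limma with Benjamini-Hochberg adjustment over the 252 miRNAs, miR-129-3p fell by a log2 difference of -1.41 (SE 0.208, adjusted p = 0.0119) against control cells. Against Rb-depleted primary cells it fell by a difference of -1.22 (SE 0.208, adjusted p = 0.0172, limma). In these comparisons 22.6% and 20.2% of the 252 miRNAs had an adjusted p under 0.05 in either direction. Rb depletion in primary cells alone went with a difference of miR-129-3p of -0.19 (95% interval -0.76 to 0.38, adjusted p = 0.625, limma).

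The calls for miR-129-3p depended on the number of arrays. With 1 array left out the difference against control cells lay between -1.61 and -1.29 and its limma adjusted p between 0.00429 and 0.0835, above 0.05 without either control array or without secondary replicate 1. Against Rb-depleted primary cells the adjusted p lay between 0.0102 and 0.0911 (limma), and it was above 0.05 without any 1 of the 4 arrays of primary cells or without secondary replicate 1. With slide as a term the adjusted p was 0.0730 and 0.0842 (limma), at differences of -1.57 and -1.38 that rest on 1 secondary array.

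Within an array the 2 arms kept nearly the same distance. Total gene signal of miR-129-3p was 4.29 and 5.07 times that of miR-129-5p in control cells, 4.65 and 4.51 times in Rb-depleted primary cells and 4.79, 4.47 and 4.52 times in secondary cells. The ratios of the 3 groups overlapped. Even the spread among the secondary arrays was shared, since replicate 3 was the highest and replicate 2 the lowest of them for both arms.

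**Figure D2:**
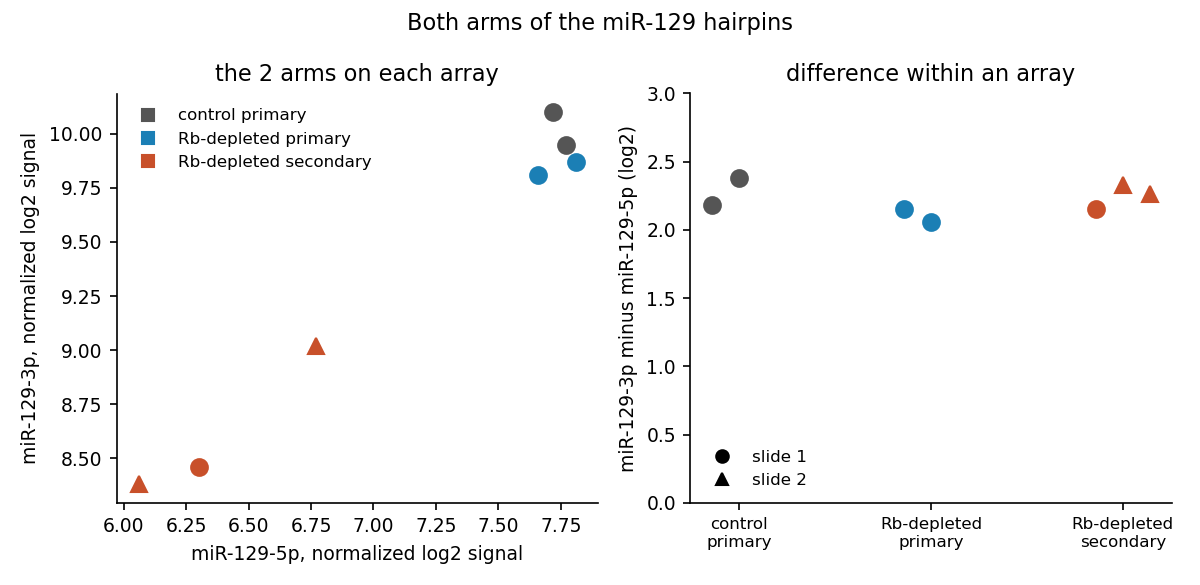
Left, normalized log2 signal of miR-129-3p against that of miR-129-5p, 1 point per array, coloured by group. Right, the difference between the arms within each array (log2), by group, with circles for slide 1 and triangles for slide 2. Both arms are lower on the 3 secondary arrays, while their difference stays between 2.06 and 2.38 on all 7 arrays.

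MiR-188-5p stepped down from each group to the next. Its total gene signal was 181 and 191 in control cells, 117 and 108 after Rb depletion in primary cells and 54.6, 53.7 and 41.8 in secondary cells. The normalized log2 values were 7.34 and 7.29, then 6.77 and 6.88, then 5.95, 5.91 and 5.56. No array of one group overlapped with another group. Secondary cells differed by a log2 difference of -1.51 (SE 0.137) from control cells, a 2.85-fold lower level, and by -1.02 (SE 0.137) from Rb-depleted primary cells. On slide 1 alone these differences were -1.36 and -0.87.

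The first of the steps, between Rb-depleted primary and control cells, was not used to choose the members and was tested, although it shares its arrays with the comparisons that were. Here 1.59% of the 252 miRNAs had a limma adjusted p under 0.05, and so did 0 of the 4 members. At an unadjusted p under 0.05 the counts were 2 of the 4 members and 64 of the 252 miRNAs, or 25.4%. MiR-188-5p differed by -0.49 (95% interval -0.87 to -0.12, limma adjusted p = 0.141) and miR-1224 by -0.55 (95% interval -1.1 to -0.01, limma adjusted p = 0.189), both without overlap of the arrays, as were 26.6% of the 252 miRNAs in this direction. For miR-129-5p the difference was -0.02 (95% interval -0.60 to 0.56, limma adjusted p = 0.978) and for miR-671-5p it was 0.29 (95% interval -0.78 to 1.36, limma adjusted p = 0.691). These 4 arrays all lay on slide 1. Without normalization the difference of miR-188-5p was -0.73 and passed the test (limma adjusted p = 0.0440), beside the shift of -0.26 over all miRNAs.

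All 4 probes of miR-188-5p gave the decline. Their log2 differences in total probe signal between secondary and control cells, before normalization, lay between -1.96 and -1.81, and those between Rb-depleted primary and control cells between -0.84 and -0.59. The spots of the groups came closest for the fourth probe, where the lowest of 20 spots on primary and control arrays had a signal of 72.6 and the highest of 15 spots on secondary arrays one of 71.5. None of the 4 probes had overlapping spots. These signals were not normalized between arrays, and the median shift over all miRNAs against control cells was -0.46. The other arm, miR-188-3p, was not detected on any of the 7 arrays.

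On the deposited values, none of the neighbours of miR-188-5p in the Clcn5 intron passed the test as lower in secondary cells. Going along the transcript, Mir532 comes before Mir188 with 345 bases between them, and Mir362, Mir501 and Mir500 follow, the last 10214 bases away. Hairpins this close are usually cut from 1 primary transcript. Of the 9 mature miRNAs of this cluster on the array, 6 were detected on all 7 arrays and 3 (miR-188-3p, miR-501-5p and miR-501-3p) on none. Among the 5 in the table besides miR-188-5p, 2 passed the test as higher and 0 as lower in secondary cells against control cells, where 13.1% of the 252 miRNAs passed as higher and 9.52% as lower. Against Rb-depleted primary cells the counts were again 2 and 0, beside 12.7% and 7.54%. Their median log2 differences were 0.37 and 0.44 on the deposited values. The direction against control cells depended on the scaling for all but miR-362-3p. Without normalization the differences were 0.28 for miR-362-3p, -0.27 for miR-362-5p, -0.16 for miR-500, -0.48 for miR-532-5p and -0.44 for miR-532-3p, beside the shift of -0.46 over all miRNAs.

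MiR-362-3p rose the most clearly of these neighbours. Its log2 values were 6.12 and 6.12 in control cells, 6.15 and 5.91 after Rb depletion in primary cells and 7.02, 6.82 and 6.90 in secondary cells, all 3 above the rest. The difference was 0.80 (SE 0.107, limma adjusted p = 0.0106) against control cells and 0.89 (SE 0.107, limma adjusted p = 0.0146) against Rb-depleted primary cells. Without normalization these were 0.28 (limma adjusted p = 0.235) and 0.74 (limma adjusted p = 0.0283), so that the rise against control cells did not pass on that scale. Leaving out 1 array took the limma adjusted p to 0.0778 and 0.0642 against control cells (without control replicate 1 or 2) and to 0.0706 against Rb-depleted primary cells (without Rb-depleted primary replicate 2). With slide as a term the differences, which then rest on 1 secondary array, were 0.90 (limma adjusted p = 0.0535) and 0.99 (limma adjusted p = 0.0548).

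MiR-362-5p, cut from the same hairpin, rose against Rb-depleted primary cells (log2 difference 0.44, SE 0.106, limma adjusted p = 0.0413). Against control cells its difference was 0.37 (limma adjusted p = 0.0615), and -0.27 without normalization, so this direction depends on the scaling. Against Rb-depleted primary cells the call was lost without normalization (0.15, limma adjusted p = 0.616), with all probes summed (0.29, limma adjusted p = 0.106) and with slide as a term (limma adjusted p = 0.0606), and it held under 1 of 20 alternatives. With 1 array left out the adjusted p against Rb-depleted primary cells reached 0.189 (limma, without Rb-depleted primary replicate 2) and was under 0.05 only without secondary replicate 2. The software counted 2 of its 4 probes on every array except Rb-depleted primary replicate 1, where it counted 3. MiR-500 (miR-500-3p in the scanner files) differed by 0.31 (SE 0.0811, limma adjusted p = 0.0461) against control cells and by 0.01 (limma adjusted p = 0.976) against Rb-depleted primary cells. Its difference against control cells was -0.16 without normalization and did not pass with any 1 of the 7 arrays left out.

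MiR-532-5p, the product of the nearest hairpin, had log2 values of 5.93 and 5.88 in control cells, 6.06 and 6.17 after Rb depletion in primary cells and 6.00, 5.86 and 5.95 in secondary cells. The difference was 0.03 (95% interval -0.17 to 0.23, limma adjusted p = 0.802) against control cells and -0.18 (95% interval -0.38 to 0.02, limma adjusted p = 0.162) against Rb-depleted primary cells. Without normalization it was -0.48 against control cells and passed the test (limma adjusted p = 0.0237), beside the shift of -0.46 over all miRNAs. MiR-532-3p had a total gene signal between 5.39 and 10.1 and was counted from 1 of its 4 probes on every array. Its differences of 0.61 and 0.51 had wide intervals (-0.70 to 1.93 and -0.81 to 1.83, limma adjusted p = 0.443 and 0.511) and turned negative without normalization. Without secondary replicate 1 they were 0.08 and -0.03. The total gene signal of miR-532-3p on that array was 8.52, beside 8.43 and 9.65 in control cells. With slide as a term the difference against control cells was 1.69, which rests on that 1 secondary array. Against control cells miR-532-3p passed as lower with all probes summed and not normalized (-1.23, limma adjusted p = 0.0280).

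Within each array, on the normalized log2 scale, miR-188-5p lay on average 1.41 log2 units above miR-532-5p in control cells, 0.71 above it in Rb-depleted primary cells and -0.13 from it in secondary cells. The same distance to miR-362-3p was 1.20, 0.79 and -1.11, and to miR-500 it was 0.58, -0.21 and -1.24. In each case the 3 secondary arrays lay below all others, which follows in part from the choice of miR-188-5p for its low values there and is a description only.

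**Figure D3:**
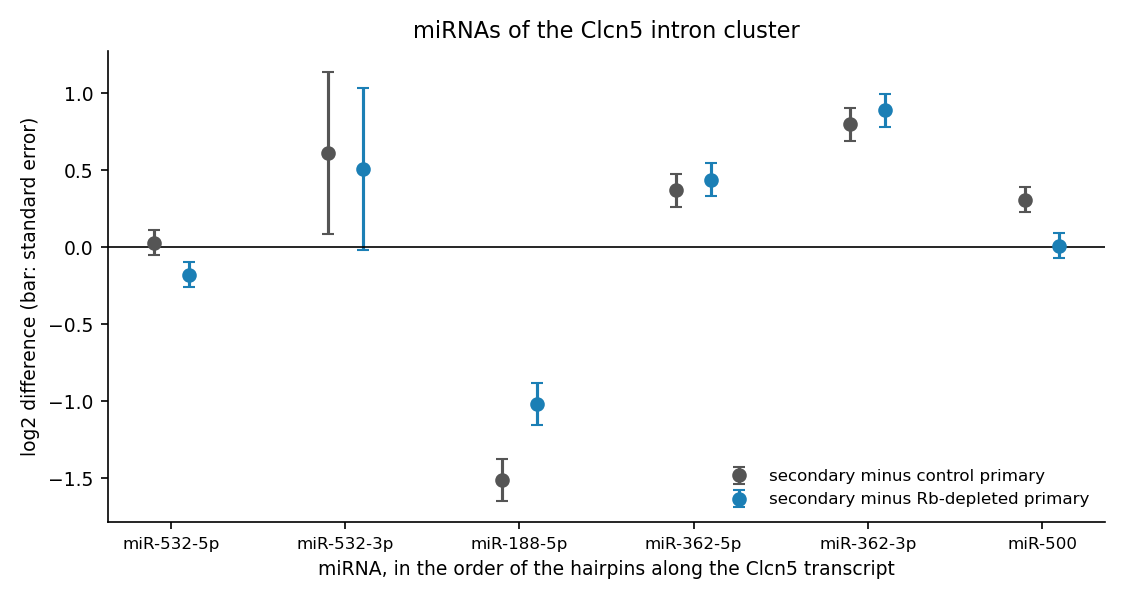
Log2 difference (vertical axis) of 6 miRNAs of the Clcn5 intron cluster in Rb-depleted secondary cells against control primary cells (grey) and against Rb-depleted primary cells (blue), in the order of their hairpins along the Clcn5 transcript. Bars are standard errors from the limma fit. MiR-188-5p lies at -1.51 and -1.02, while miR-362-3p lies at 0.80 and 0.89 and miR-532-5p near 0.

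MiR-1224 gave the highest total gene signal of the 4 on every array, a quantity that depends on the probes as well as on the amount of miRNA. The signal was 2760 and 2450 in control cells, 1800 and 1740 after Rb depletion in primary cells and 1270, 880 and 811 in secondary cells. The normalized log2 values were 11.34 and 10.98, then 10.52 and 10.69, then 10.31, 9.87 and 9.79. The groups did not overlap, but the secondary array of slide 1 lay only -0.21 from the lowest primary array. Secondary cells differed by a log2 difference of -1.17 (SE 0.200) from control cells, a 2.25-fold lower level, and by -0.62 (SE 0.200) from Rb-depleted primary cells.

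The slide moved with part of this difference. On slide 1 alone the log2 differences of miR-1224 were -0.84 against control cells and -0.29 against Rb-depleted primary cells. For the 2 secondary arrays of slide 2 they were -1.33 and -0.78. With 1 secondary array on slide 1, slide and replicate cannot be told apart. The 2 probes of miR-1224 had log2 differences in total probe signal of -1.58 and -1.38 between secondary and control cells before normalization. Their spots, also not normalized between arrays, did not overlap. For the first probe, however, the lowest of 40 spots on primary and control arrays was 525 and the highest of 30 on secondary arrays 495.

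Of the other miRNAs listed as mirtrons, 2 were in the normalized table. MiR-1982*, the 5p arm of the miR-1982 hairpin, fell by a log2 difference of -0.47 (SE 0.101, limma adjusted p = 0.0298) against control cells and of -0.43 (SE 0.101, limma adjusted p = 0.0411) against Rb-depleted primary cells. Its values were 5.68 and 5.57 in control cells, 5.52 and 5.66 after Rb depletion in primary cells and 5.24, 5.20 and 5.03 in secondary cells, with no overlap. With 1 array left out the limma adjusted p ranged from 0.0394 to 0.163 and from 0.0467 to 0.189 against control and Rb-depleted primary cells. Against control cells it was above 0.05 without either control array or without secondary replicate 1 or 3, and against Rb-depleted primary cells it was under 0.05 only without secondary replicate 2. It was above 0.05 in both comparisons after scaling to the 75th percentile (limma adjusted p = 0.0650 and 0.191) and with slide as a term (limma adjusted p = 0.135 and 0.186), and without normalization the difference against control cells was -0.99, beside the shift of -0.46. MiR-702 differed by 0.38 (95% interval -0.68 to 1.45, limma adjusted p = 0.548) and by 0.05 (95% interval -1.02 to 1.11, limma adjusted p = 0.969), and from 1 to 4 of its 4 probes were counted depending on the array.

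MiR-671-5p had the lowest log2 difference of all 252 miRNAs in both comparisons of secondary cells, but its totals hold 1 probe on the secondary arrays and 3 or 4 on the others, so its deposited differences compare unlike sets of probes close to background. Its total gene signal was 33.2 and 25.4 in control cells, 27.5 and 27.2 after Rb depletion in primary cells and 6.40, 5.78 and 6.79 in secondary cells. The normalized log2 values were 4.67 and 4.30, then 4.70 and 4.84, then 3.25, 2.11 and 2.07. The secondary arrays were far below the rest. Among them the array of slide 1 stood above those of slide 2 on the normalized scale only. In total gene signal, at 6.40, it lay between the arrays of slide 2, at 5.78 and 6.79. The differences in these totals were -2.01 (SE 0.39) against control cells and -2.30 (SE 0.39) against Rb-depleted primary cells. On slide 1 alone they were -1.23 and -1.52.

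The array carried 4 probes for miR-671-5p, and on 4 of the 7 arrays the total gene signal left some of them out. Matching each total to the sums of the probes' signals showed that all 4 were counted on control replicate 1 and on both Rb-depleted primary arrays and 3 of 4 on control replicate 2. On all 3 secondary arrays 1 of 4 was counted, the brightest. It was the 1 miRNA of 252 for which at least 3 probes were left out on every secondary array and at most 1 on every other array. This criterion follows the pattern of miR-671-5p itself, and only miRNAs with at least 4 probes could meet it. Fewer probes were counted on every secondary array than on any other array for 4 of the 252 miRNAs, and more for 0. For miR-188-5p, miR-129-5p and miR-1224 all probes were counted on all 7 arrays, as for 186 of the 252.

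Summing all 4 probes, whether or not they had been counted, gave miR-671-5p 33.2 and 29.0 in control cells, 27.5 and 27.2 after Rb depletion in primary cells and 16.9, 11.7 and 13.6 in secondary cells. The secondary arrays were still below all others. After quantile normalization of such sums for all 252 miRNAs, the log2 difference was -0.71 (SE 0.124) against control cells, a 1.64-fold lower level, and -0.86 (SE 0.124) against Rb-depleted primary cells. MiR-671-5p then ranked 24 of 252 from the lowest against control cells and 11 of 252 against Rb-depleted primary cells. The other 3 members changed by little, to -1.50, -1.38 and -1.13 against control cells for miR-188-5p, miR-129-5p and miR-1224.

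The probes of miR-671-5p taken singly gave log2 differences between -1.38 and -1.09 against control cells before normalization, beside a shift of -0.46 over all miRNAs. The brightest probe, counted everywhere, had a total probe signal of 13.8 and 13.1 in control cells, 11.7 and 10.2 after Rb depletion in primary cells and 6.40, 5.78 and 6.79 in secondary cells. Its spots did not overlap between secondary arrays (highest 23.1) and the others (lowest 26.7), whereas those of the other 3 probes did. These signals were close to the background. Of the 20 spots of miR-671-5p per array, the software marked 10 and 6 as well above background in control cells, 9 and 14 after Rb depletion in primary cells and 0, 3 and 5 in secondary cells. For the other 3 members it marked 19 or 20 of 20 on every array. A looser measure was the 95th percentile of the spots of miRNAs detected on no array. Above it lay 20 and 19 of the 20 spots of miR-671-5p in control cells. The counts were 20 and 20 after Rb depletion in primary cells and 18, 14 and 13 in secondary cells. The other arm, miR-671-3p, was not detected on any array.

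**Figure D4:**
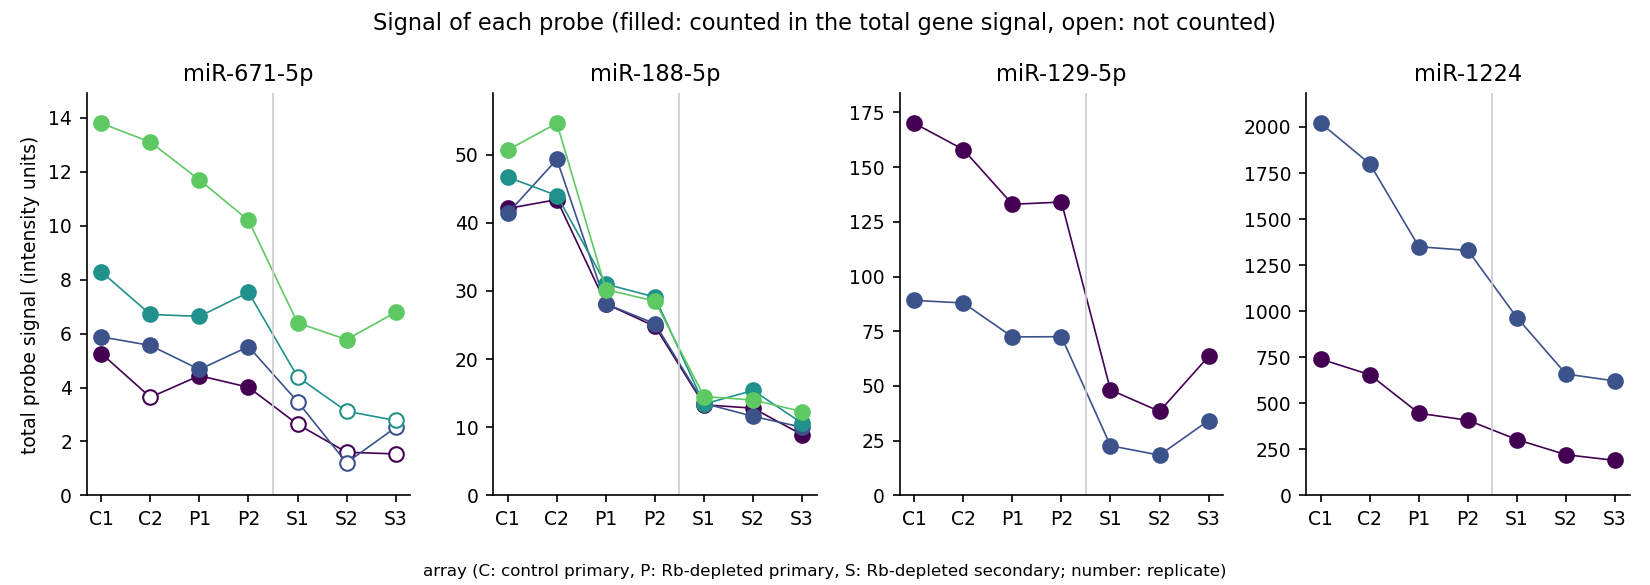
Total signal of each probe (vertical axis, intensity units before normalization, a separate scale for each miRNA) of the 4 miRNAs on the 7 arrays. Lines join the points of 1 probe, filled points were counted in the total gene signal and open points were not; S2 and S3 lay on slide 2 and the other arrays on slide 1. All probes are lower on the secondary arrays, and open points occur only for miR-671-5p, at 3 of 4 probes on each secondary array and 1 on C2.

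**Figure D5:**
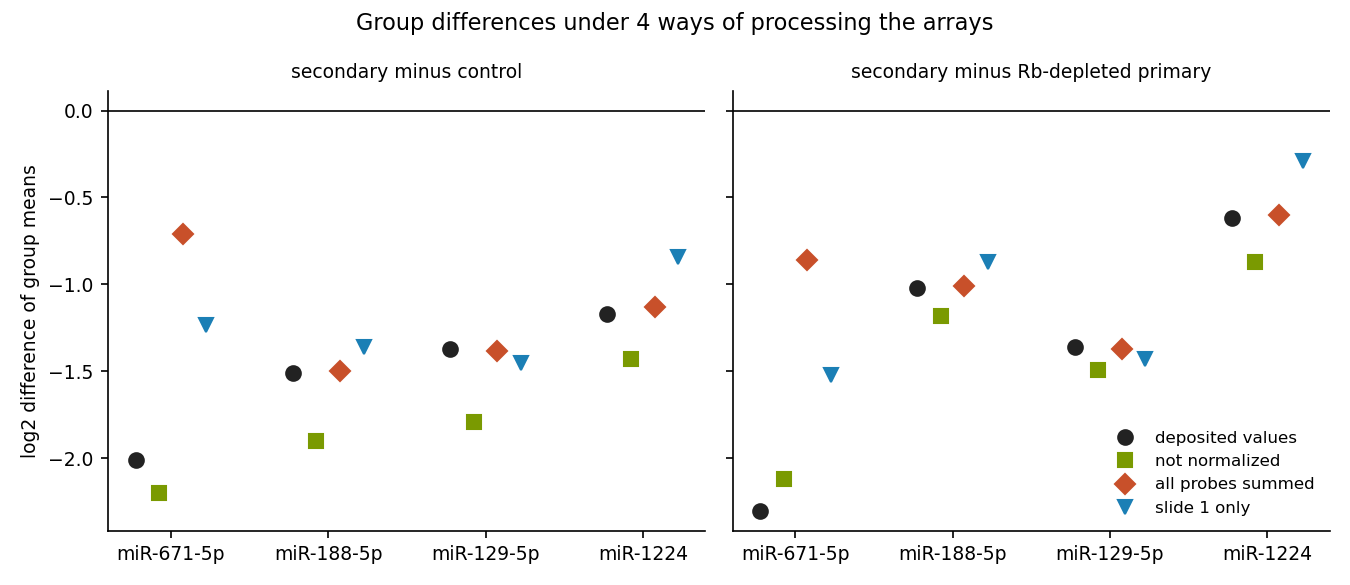
Log2 difference of group means (vertical axis) of the 4 miRNAs in Rb-depleted secondary cells against control primary cells (left) and Rb-depleted primary cells (right), from the deposited values, without normalization, with all probes summed, and on slide 1 alone. All values are below 0. For miR-671-5p they range from -2.20 to -0.71 on the left, and for miR-129-5p from -1.79 to -1.37.

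Likeness of profiles was measured as the root mean square difference of log2 values over the 7 arrays, after each miRNA was centred on its own mean. The values are a description of 7 arrays that share their normalization. For miR-129-5p the nearest of the other miRNAs was miR-129-3p, at 0.104, followed by miR-2132 at 0.268 and miR-689 at 0.332. For miR-188-5p the nearest were miR-2138 (0.173), miR-2137 (0.211) and miR-1224 (0.231). For miR-1224 they were miR-2138 (0.166), miR-2137 (0.198) and miR-2861 (0.218). In the scanner files the names of miR-2138, miR-2132 and miR-689 carry the suffix of an older miRBase release.

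MiR-671-5p had no profile as near. Its closest was miR-370 at 0.384, and next came miR-129-5p at 0.606 and miR-188-5p at 0.616. MiR-370 also lost a probe. Both of its 2 probes were counted on all arrays of primary cells and 1 on each secondary array, and its log2 difference against control cells was -1.77 as deposited and -1.09 with all probes summed.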

How the data were processed

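Total RNA (RIN 10 per the labels) was labelled with Cy3 and hybridised to Agilent mouse miRNA arrays. The authors deposited the scanner's intensity of each spot and the total gene signal of each miRNA (Feature Extraction 11.0.1.1 per the file headers, 10.7.3.1 in the submitters' processing notes), and a table of log2 values after quantile normalization in GeneSpring. The 252 mouse miRNAs of that table, all detected on all 7 arrays, were matched to scanner names by their values (largest difference 3.2e-06), since 195 names differ between the files. MiR-1224 is miR-1224-5p there. Its 11 control rows were left out.

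The deposited log2 values were fitted in R 4.3.3 with limma 3.58.1, with 1 mean for each of the 3 groups over all 7 arrays and Benjamini-Hochberg adjustment over 252 miRNAs at 0.05, and the procedure was tested on simulated data. Tables were made with Python 3.11.15 and pandas 2.3.3. Probes counted in a total were found as the subset whose sum lay within a fraction of 0.002 of it. Loci came from the GENCODE annotation of NCBIM37 and sequences from RefSeq. A description by base composition was left out because 198 of the 252 miRNAs (78.6%, under the minimum of 80%) had a sequence there.

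The members and lists (other arms, Clcn5 cluster, mirtrons) were chosen with earlier results of these data known. The miRNAs named are the members, the lists and the 3 nearest profiles of each member. Alternatives were other scalings (75th percentile, quantile over the table alone, none), spot signals, all miRNAs with a floor of 1 (312 tested), other limma settings, a replicate block, slide as a term, 2 groups alone and each array left out. Sums of all probes and slide 1 alone were added after the data were seen.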

Additional observations from a re-analysis of the deposited data

Results flagged for a closer look

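No group had enough arrays for a test of a single outlying array. Of the 8 listed miRNAs outside the 4 members that were tested, 4 had a log2 difference from Rb-depleted primary to secondary cells with a limma adjusted p under 0.05, as had 20.2% of the 252. With slide as a term 0 of the 4 passed (limma adjusted p from 0.0548 to 0.186). That term leaves each difference to the 1 secondary array of slide 1, so it is a weak check in either direction. Without it the differences were -1.22 for miR-129-3p, -0.43 for miR-1982*, 0.89 for miR-362-3p and 0.44 for miR-362-5p. The last 2 were higher, whereas miR-188-5p, from the same intron, was lower.

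Outside the normalized table, the mirtron miR-877-3p was detected on 5 of the 7 arrays. Its total gene signal was 9.18 and 15.4 in Rb-depleted primary cells, with a median of 12.3, and 5.02 in 1 control array, while the other control array was listed at 0.1, the value given to miRNAs not detected. In secondary cells it was 0.1, 8.97 and 11.4, which overlapped with both other groups. The difference was not tested.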

How the results depend on the processing

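In the comparisons with secondary cells, all 160 member differences under alternatives were negative, 136 of them within 1 residual SD of the reported value. Part of this tally was fixed in advance, since the members were chosen for being lower. Other limma settings, 2 groups alone and leaving out an array of the third group cannot move a difference. Slide as a term and slide 1 alone always give the same difference. For miR-671-5p the differences against control and Rb-depleted primary cells were -0.74 and -0.74 from spot signals summed over all probes, -0.71 and -0.86 with all probes summed and normalized, -1.16 and -0.97 with them summed and not normalized, and -1.23 and -1.52 both with slide as a term and on slide 1 alone. These slide 1 values of miR-671-5p are on the normalized scale. In total gene signal its secondary array of slide 1 (6.40) lay between those of slide 2 (5.78 and 6.79). For miR-1224 slide as a term and slide 1 alone both gave -0.84 and -0.29. Without normalization, with or without all probes summed, miR-188-5p gave -1.90 and -1.18, miR-1224 -1.43 and -0.87, and miR-129-5p -1.79 against control cells. With 1 array left out, the differences against control and against Rb-depleted primary cells ranged from -2.39 to -1.80 and from -2.68 to -2.09 for miR-671-5p, from -1.58 to -1.39 and from -1.09 to -0.89 for miR-188-5p, from -1.57 to -1.21 and from -1.55 to -1.20 for miR-129-5p, and from -1.35 to -0.99 and from -0.78 to -0.51 for miR-1224. For Rb-depleted primary against control cells they ranged from 0.10 to 0.48, -0.55 to -0.44, -0.09 to 0.06 and -0.73 to -0.37 in the same order. In that comparison the direction of miR-671-5p depended on the processing. Its difference was 0.01 from spot signals, -0.09 without normalization and -0.18 with all probes summed and not normalized. There 78 of 80 alternatives left the members' tests unchanged, and miR-188-5p passed without normalization (-0.73, limma adjusted p = 0.0440, and -0.73 with all probes summed, 0.0296). The limma adjusted p over all alternatives ranged from 0.0296 to 0.371 for miR-188-5p, 0.124 to 0.643 for miR-1224, 0.331 to 0.994 for miR-671-5p and 0.439 to 1 for miR-129-5p.

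Counts of called miRNAs moved far more, which limits the calls of miRNAs outside the 4. For Rb-depleted primary against control cells the 4 calls became 0 with 75th-percentile scaling, spot signals, a floor of 1, slide as a term, 2 groups alone and slide 1 alone, 27 without normalization, 36 with all probes summed and not normalized, and 8 at an adjusted p under 0.1. With each array left out they ranged from 0 to 22. Against control cells the 57 calls in secondary cells became 29 with 75th-percentile scaling, 114 without normalization, 35 from spot signals, 34 without moderation, 6 with slide as a term, 122 with all probes summed and not normalized, 36 on slide 1 alone and 1 to 74 with each array left out (1 without control replicate 1). Against Rb-depleted primary cells the 51 became 15 without moderation, 0 with slide as a term, 19 with 2 groups alone, 29 on slide 1 alone, 93 at an adjusted p under 0.1 and 2 to 66 with each array left out (2 without Rb-depleted primary replicate 2). The causes were not tested.

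The arrays were not treated as paired by replicate number, and whether they were paired is not known. Deviations of same-numbered arrays correlated between -0.14 and 0.13, and no label ties the numbers to a shared day or culture. With the replicate block the calls were 0 in Rb-depleted primary against control cells, 4 in secondary against control cells and 0 in secondary against Rb-depleted primary cells.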
